A study of Mus musculus with 10 samples.

Results

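To examine the chromatin of gene families known mainly from the sensory neurons of the nose, the peaks over olfactory and vomeronasal receptor genes were described in AB17 cells by genotype and antibody. The genes were the autosomal protein-coding genes of GENCODE vM21 (mm10, GRCm38) whose symbol starts with Olfr, Vmn1r or Vmn2r, each taken as its gene body plus 2 kb on both sides. Of 20807 autosomal protein-coding genes, 1457 met this rule, namely 1128 Olfr, 208 Vmn1r and 121 Vmn2r genes. For 2 symbols, Olfr290 and Vmn1r216, a pair of gene models was counted separately.

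AB17 is a mouse hepatocyte culture immortalized with SV40 large T and H-Ras V12D viruses, and every group carried both and came from an Arid1a fl/fl animal of the C57BL/6 strain. WT cells had received Ad-GFP and kept Arid1a, while KO cells had received Ad-Cre and were Arid1a-/-. ChIP-seq peak lists covered H3K9me3 and H3K27me3 in WT and KO cells, and Arid1a, Brg1, Ctcf and Rad21 in WT cells alone. Because each group is 1 library, the differences cannot be set against replicate error and none was tested. Intervals are 95% binomial or Poisson intervals that cover counting error only. They treat genes and summits as independent, although neighbouring windows can share a summit, so they can be too narrow. The read depth is unknown, so the number of peaks in a list cannot be corrected for it. Each peak was given by its summit, the position of its highest signal, and carried the −log10 of its q-value against the input, here called its value. On the autosomes the lists held between 70157 summits (Arid1a) and 141657 summits (WT H3K9me3). Peak lists do not measure expression, and the cell type was not checked by it. Of 7 hepatocyte marker genes, H3K27me3 summits lay at 5 in WT cells (32.3% of all genes) and at 2 in KO cells (27.5% of all genes), with 18 summits at Hnf4a in each genotype.

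Olfactory receptors are G protein-coupled receptors of the nasal epithelium, and each olfactory neuron transcribes a single Olfr allele. Vomeronasal receptors of the Vmn1r and Vmn2r families detect pheromones and other social cues, and the Vmn2r proteins carry a long extracellular domain encoded by several exons. The genes lie in tandem arrays, and in neurons the silent copies carry H3K9me3, a mark of constitutive heterochromatin. H3K27me3 is the mark of the Polycomb system. Arid1a and Brg1 are subunits of the SWI/SNF remodelling complex, whereas Ctcf and the cohesin subunit Rad21 meet at the anchors of chromatin loops.

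The sequences at the strongest summits are shown first, since they are the best supported positions inside receptor windows. The 3 strongest Ctcf summits with a Rad21 summit within 1 kb lay in the Olfr56 gene model and at Olfr1410. Because the Olfr56 model overlaps other genes, the next ones outside it, at Olfr71 and Vmn2r7, were added after their values had been seen. The strongest WT H3K9me3 summit follows. All are on the plus strand of GRCm38, with 50 bases on each side of the summit except at Olfr1410, where the summit lies in a UTR of that gene and 30 bases that end 8 bp before it are printed. Capitals mark a match to the core of the Ctcf motif, which is CCA, any 2 bases, AG, any 2 bases and GGC, searched on both strands.
Ctcf at Olfr1396 and Olfr56, chr11:49108855-49108955: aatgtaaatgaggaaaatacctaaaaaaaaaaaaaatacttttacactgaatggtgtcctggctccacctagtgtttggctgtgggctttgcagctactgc
Ctcf at Olfr1410, chr1:92611203-92611232: tcctacactGCCACCTACTGGgcactgatg
Ctcf at Olfr56, chr11:49103456-49103556: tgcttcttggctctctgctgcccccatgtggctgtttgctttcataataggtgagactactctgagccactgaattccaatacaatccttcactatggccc
Ctcf at Olfr71, chr4:43711929-43712029: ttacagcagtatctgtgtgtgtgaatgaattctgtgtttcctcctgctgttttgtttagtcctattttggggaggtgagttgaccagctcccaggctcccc
Ctcf at Vmn2r7, chr3:64842423-64842523: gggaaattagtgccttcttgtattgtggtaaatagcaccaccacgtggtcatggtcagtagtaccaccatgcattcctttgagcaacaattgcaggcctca
WT H3K9me3 at Olfr56, chr11:49025023-49025123: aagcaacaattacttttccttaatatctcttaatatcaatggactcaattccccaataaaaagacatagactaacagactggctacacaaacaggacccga

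The Ctcf summit at Olfr1396 and Olfr56 had a value of 72.1, with a Rad21 summit 28 bp away, in an intron of Olfr56. The summit at Olfr1410 had a value of 65.0 with Rad21 3 bp away, and the motif letters lay on the minus strand, centred 22 bp from the summit. The second summit in the Olfr56 model reached 61.9, with Rad21 69 bp away. The summit at Olfr71 (59.6, Rad21 at 130 bp) lay outside any annotated gene body, and that at Vmn2r7 (56.8, Rad21 at 22 bp) lay in an intron of Vmn2r7. Only the Olfr1410 stretch held the motif letters. Among all 145 Ctcf summits in receptor windows, 22 (15.2%) had a match within 50 bp, beside 14.4% of the 89093 Ctcf summits elsewhere on the autosomes. The letters were rare in these genes as a whole, at 0.238% of 179870 adjoining stretches of 101 bases across the receptor windows, and at 0.326% of the 1227 RefSeq promoters of receptor genes (300 bases each) beside 2.43% of all 32851 promoters. Thus Ctcf summits in receptor windows carried the letters about as often as Ctcf summits elsewhere, and more often than the adjoining stretches of receptor windows. Such stretches were not searched outside receptor windows, so whether the letters are scarcer in receptor windows than elsewhere was not measured.

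The strongest WT H3K9me3 summit had a value of 10.1 and lay inside both Olfr56 and 9930111J21Rik2. All of its 101 bases were soft-masked in the reference as repeats. In the Olfr56 window 56.98% of 50-base words occurred once in the reference.

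Receptor genes were poor in summits of every kind. No summit of any of the 8 lists lay in the window of 859 receptor genes (59.0%), whereas 8.50% of all autosomal protein-coding genes lacked one. The WT H3K9me3 list marked 177 receptor genes (12.1%, interval 10.6 to 13.9) against 70.7% of all autosomal genes. Receptor genes are short, with a median body of 6.35 kb against 19.6 kb for the others, and other genes weighted to the same sizes were therefore used for comparison. Their WT H3K9me3 share was 59.3%. In KO cells H3K9me3 summits lay at 305 receptor genes (20.9%, 18.9 to 23.1), beside 51.7% of all genes and 30.6% of size-matched ones. The gap to other genes was thus narrower in the KO list, as the receptor share was higher and the size-matched share lower than in WT.

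H3K27me3 summits lay at 137 receptor genes in WT (9.40%, 8.01 to 11.01), beside 32.3% of all genes and 29.9% of size-matched genes. In KO cells the count was 124 (8.51%, 7.18 to 10.1), beside 27.5% and 25.6%. The shares of the chromatin proteins were low as well. Arid1a summits lay at 110 receptor genes (7.55%, with 60.1% of all genes and 48.1% of size-matched genes), and Brg1 summits at 133 (9.13%, with 61.9% and 50.1%). Ctcf summits lay at 102 receptor genes (7.001%, with 70.2% and 59.2%), and Rad21 summits at 97 (6.66%, with 71.9% and 62.3%). The interval of each receptor share lay below the size-matched share in all 8 lists.

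The summits that receptor genes did have were of unequal strength. Values of 5 or more were found for 59 of the 145 Ctcf summits (40.7%, beside 41.0% outside) and 38 of the 153 Rad21 summits (24.8%, beside 25.9%), so the few Ctcf and Rad21 sites were as strong as elsewhere. None of the 147 Arid1a summits reached this value, which allows a share of up to 2.04%, beside 2.49% outside. For Brg1 2 of 177 did (1.13%, beside 3.95% outside), both on chromosome 19 in an array of Olfr genes, at Olfr1423 (5.96) and Olfr1443 (5.20).

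**Figure D1:**
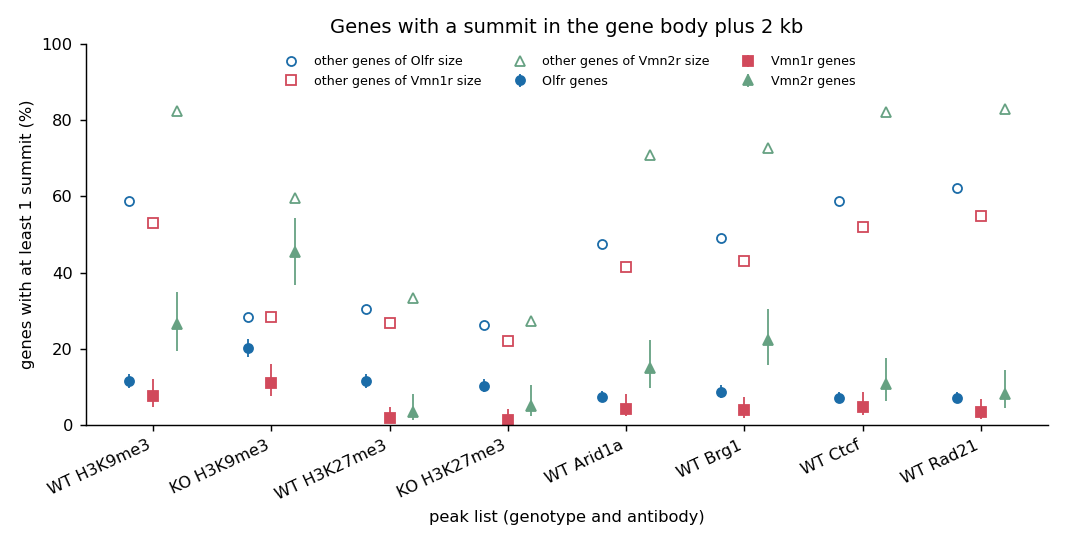
Percentage of genes with at least 1 summit in the gene body plus 2 kb, for each peak list. Filled symbols are Olfr, Vmn1r and Vmn2r genes with 95% Wilson intervals, and open symbols are other autosomal protein-coding genes weighted to the sizes of that family. Each filled symbol sits below its open symbol, with Vmn2r genes in KO H3K9me3 (45.5% against 59.6%) and Olfr genes in KO H3K9me3 (20.1% against 28.3%) nearest to theirs.

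The families differed in which lists reached them. The long Vmn2r genes had the highest H3K9me3 shares, 32 of 121 in WT (26.4%) and 55 in KO (45.5%, 36.9 to 54.3), where size-matched genes stood at 82.4% and 59.6%. Vmn1r genes were marked less often, 16 of 208 in WT (7.69%) and 23 in KO (11.1%), where size-matched genes stood at 52.9% and 28.3%. Olfr genes, 1128 of the 1457 receptor genes, made up 129 of the 137 genes with H3K27me3 in WT and 115 of the 124 in KO. In WT the mark lay at 11.4% of Olfr genes (size-matched 30.4%). It lay at 4 Vmn1r genes (1.92%, size-matched 26.8%) and 4 Vmn2r genes (3.31%, size-matched 33.3%). In KO it lay at 3 Vmn1r and 6 Vmn2r genes. Brg1 summits lay at 27 Vmn2r genes (22.3%, size-matched 72.7%), 98 Olfr genes (8.69%, size-matched 49.2%) and 8 Vmn1r genes (3.85%, size-matched 43.1%). Part of this order touches how well reads can be placed, because a median of 94.9% of 50-base words were unique in Olfr windows, 85.0% in Vmn1r windows and 78.2% in Vmn2r windows. At least 90% unique words were found in 34 of the 121 Vmn2r genes (28.1%). H3K9me3 summits lay at 1 of these 34 in WT and at 7 in KO (70.7% and 51.7% of all genes). Most marked Vmn2r genes were below that level, as were most Vmn2r genes. The part of read placement in the family differences was not tested.

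Receptor windows were also AT-rich, with a median GC content of 37.3% against 45.6% for other genes, and outside receptor windows the summits of every list were sparser in bins below 36% GC than in those of 40 to 42%. Other genes were then matched on size and GC content together in coarser steps of size, for 1219 receptor genes. The matched genes were still longer, with a mean of 12594 bp against 9332 bp, and 11536 bp against 6913 bp for Olfr genes alone, so size was matched only in part. In this comparison the lower H3K27me3 share was no longer seen over the families together. It was 10.99% of receptor genes against 10.87% of matched genes in WT and 10.01% against 9.61% in KO. For Olfr genes alone, of which 801 of 1128 could be matched, the shares were 15.7% against 11.6% in WT and 14.1% against 10.4% in KO. These 801 had a mean GC content of 38.4%, against 37.5% for all 1128. They held 126 of the 129 Olfr genes with the mark in WT, so their shares do not stand for all Olfr genes. The lower share remained for Vmn1r genes (186 matched), at 2.15% against 10.1% in WT and 1.08% against 8.43% in KO. For Vmn2r genes (84 matched) it was 4.76% against 13.4% in WT and 5.95% against 10.1% in KO. The lower shares of the chromatin proteins remained under this matching, at 8.203% against 33.9% for Arid1a, 9.60% against 36.2% for Brg1, 7.88% against 29.0% for Ctcf and 7.47% against 31.5% for Rad21. For H3K9me3 the shares were 13.5% against 30.4% in WT and 22.1% against 30.5% in KO.

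Density was also counted in bins of 10 kb, which do not depend on gene length. Over the 1822 bins centred in receptor windows, Arid1a had 8.95 summits per Mb, against 23.3 in other bins weighted to the same GC content, a ratio of 0.383. For Brg1 the ratio was 0.380, for Ctcf 0.580 and for Rad21 0.604. H3K27me3, whose shares had been about equal in the matched genes, was denser here. It had 24.0 summits per Mb in receptor bins against 10.9 in GC-weighted bins in WT (ratio 2.21), and a ratio of 2.51 in KO. The other bins were not restricted to genes, whereas receptor bins were centred in gene windows. Against genes matched on size and GC content, the ratio of mean H3K27me3 summits per gene was 1.12 in WT and 1.09 in KO. The part of this choice of background was not tested. H3K9me3 stood at 0.740 in WT and 0.823 in KO. Weighting by GC content within each chromosome left these ratios at 0.364, 0.353, 0.551 and 0.603 for the proteins in that order and at 2.05 for WT H3K27me3.

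The H3K27me3 difference in summits per Mb grew with GC content, while the fold over other bins did not follow it step by step. Receptor bins of 36 to 38% GC had 3.11 WT summits per Mb against 1.85 elsewhere, those of 38 to 40% had 10.5 against 7.77, those of 40 to 42% had 55.2 against 23.5, those of 42 to 44% had 120.2 against 51.8 and the 36 bins of 44 to 46% had 180.6 against 82.9. In KO the 36 to 38% step was lower over receptors, at 0.58 against 1.18, but this rests on 3 receptor summits. The 34 to 36% step, also with 3, was higher over receptors, at 0.81 against 0.19. Receptor genes with a WT H3K27me3 summit had a median window GC content of 42.5%, and those without one 36.9%. In bins of 34 to 42% GC the Arid1a density stayed between 7.02 and 8.96 per Mb over receptors and between 21.4 and 26.8 elsewhere. It was 26.97 against 30.8 in the 89 receptor bins of 42 to 44% GC, which held 24 summits, and 13.9 against 34.1 in the 36 bins of 44 to 46%. The Olfr56 model, which overlaps other genes, held 22 Arid1a summits in its window.

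**Figure D2:**
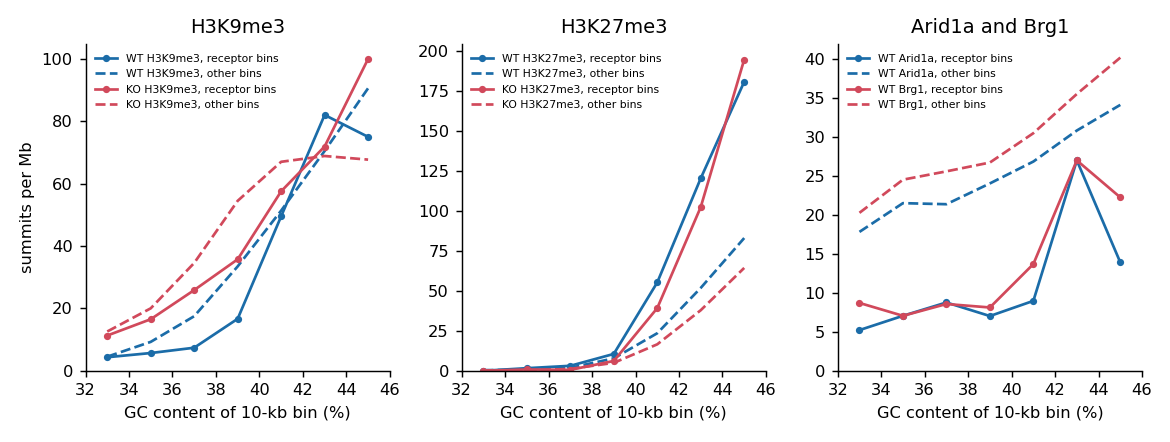
Summits per Mb in 10-kb bins of the autosomes by GC content (percent, steps of 2), for H3K9me3, H3K27me3 and the pair Arid1a and Brg1. Solid lines with points are bins centred in receptor windows and dashed lines are all other bins. H3K27me3 in receptor bins rises to 180.6 per Mb at 44 to 46% GC in WT, above 82.9 in other bins, while Arid1a and Brg1 lie below other bins at each step.

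To compare the genotypes, each summit in a receptor window was counted once. H3K9me3 gave 341 WT and 543 KO summits, a KO to WT ratio of 1.59 (1.39 to 1.82), where the whole autosomes gave 0.928. The ratio was 1.50 over Olfr, 1.33 over Vmn1r and 1.94 over Vmn2r genes, with 83 and 161 summits in the last. It was 1.81 without Olfr56, whose model alone held 58 WT and 24 KO summits in its window. By gene, 245 receptor genes (16.8%) had more KO than WT summits, close to the 18.2% of all autosomal genes, and 100 (6.86%) had more WT summits, against 52.4%. Among size-matched genes 11.8% had more KO and 48.9% had more WT summits, and among genes matched on size and GC content, 17.9% had more KO and 20.6% had more WT summits. A KO summit and no WT summit was found at 211 receptor genes (14.5%, 7.61% of all genes), the reverse at 83 (5.70%, 26.6% of all genes), and summits of both at 94 (44.1% of all genes).

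Whether other AT-rich sequence had a ratio above 1 depended on how it was chosen. The 10-kb bins of receptor windows gave 1.65 and the other bins at the same GC content gave 1.48, where all other bins unweighted gave 0.926. Other genes matched on size and GC content gave 0.828 WT and 0.743 KO summits per gene, a ratio of 0.897. At 36 to 38% GC the density rose from 7.39 in WT to 25.9 in KO per Mb over receptors, and from 17.5 to 34.6 elsewhere. At 40 to 42% the rise was smaller, from 49.5 to 57.5 over receptors and from 51.4 to 67.01 elsewhere. At 42 to 44% the density fell, from 82.02 to 71.9 over receptors and from 70.5 to 68.9 elsewhere. In the 36 receptor bins of 44 to 46% it rose from 75 to 100, while it fell from 90.6 to 67.7 elsewhere. Most H3K9me3 summits in receptor windows were weak. With values of 5 or more there were 20 WT and 17 KO summits, a ratio of 0.850 (0.450 to 1.61), and 16 and 15 without Olfr56. That interval holds both 1 and the 1.59 of all summits. So few strong summits cannot show whether they share the excess in KO. Of the 13 chromosomes with at least 20 receptor genes, all but chromosomes 11 and 14 had more KO than WT summits in receptor windows. The size of the difference varied. Large ones were 21 and 57 on chromosome 2, 43 and 86 on chromosome 7, 34 and 72 on chromosome 10 and 8 and 27 on chromosome 9. Small ones were 10 and 11 on chromosome 1, 46 and 50 on chromosome 6 and 2 and 4 on chromosome 13. The ratio was 2.71 on chromosome 2, beside 0.854 on the rest of it, and 1.09 on chromosome 6, beside 1.02. Chromosome 11 gave 78 and 60, and 24 and 37 without Olfr56, and chromosome 14 gave 3 and 2.

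H3K27me3 gave 460 WT and 358 KO summits in receptor windows, a ratio of 0.778 (0.678 to 0.893), close to the 0.787 of the whole autosomes. By gene, 92 receptor genes (6.31%, 20% of all genes) had more WT and 46 (3.16%, 8.43% of all genes) had more KO summits. Summits of both genotypes lay at 102 receptor genes (25.7% of all genes), of WT alone at 35 (6.61% of all genes) and of KO alone at 22 (1.77% of all genes). Positions of this mark coincided between genotypes as elsewhere, with a KO summit within 1 kb of 55.4% of WT summits in receptor windows and of 54.6% outside. For H3K9me3, 35.5% (30.6 to 40.7) of the WT summits had a KO summit within 1 kb, beside 30.9% outside, but 21.9% (18.6 to 25.6) of the KO summits had a WT summit, beside 33.5% outside. These were 121 WT and 119 KO summits, so the lower KO share goes with the larger KO count.

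Pairs of proteins were read in the same way, and such a share also depends on how dense the partner's summits are. An Arid1a summit lay within 1 kb of 17 of 177 Brg1 summits (9.60%, 6.08 to 14.8), beside 27.6% outside. Arid1a density was 8.06 per Mb in receptor windows and 28.5 on the autosomes. A Ctcf summit lay within 1 kb of 71 of 153 Rad21 summits (46.4%, 38.7 to 54.3), beside 51.8% outside, and of 36 of the 38 Rad21 summits with a value of at least 5 (94.7%), beside 89.0%.

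Next, the arrays were examined one by one. Receptor genes at most 500 kb apart formed 74 clusters, of which 32 held at least 10 genes. H3K9me3 summits were more numerous in KO in 47 clusters, more numerous in WT in 12, equal in 7 and absent in 8. For H3K27me3, 29 clusters had more WT and 8 had more KO summits, and 32 had none at all.

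The largest cluster, 227 Olfr genes from Olfr987 to Olfr1274-ps at chr2:85330779-90403897, had 15 WT and 32 KO H3K9me3 summits and only 2 WT and 0 KO H3K27me3 summits. It had 14 Arid1a, 11 Brg1, 4 Ctcf and 6 Rad21 summits, and a median window GC content of 35.0%. The cluster of 95 Olfr genes on chromosome 9 (37708964 to 40190134) was similar, with 4 WT and 18 KO H3K9me3 summits and 1 WT H3K27me3 summit. The cluster of 66 Olfr genes on chromosome 19 (11826803 to 13921866) carried both marks, with 13 WT and 29 KO H3K9me3 and 23 WT and 17 KO H3K27me3 summits. The fifth largest, 65 Vmn1r genes at chr7:20099680-24063554, had a single Ctcf summit in all 8 lists together. Its genes had a median of 9.88% unique 50-base words, so that an absence of peaks there cannot be told apart from reads that could not be placed. The cluster with the most KO H3K9me3 summits lay on chromosome 10 from Olfr9 to Vmn2r87 (64 genes), with 19 in WT and 48 in KO.

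H3K27me3 was concentrated in a few clusters. The 8 clusters with the most WT summits, chosen by these same counts, held 284 of 460 (61.7%) with 271 of 1457 genes (18.6%). Their median GC content ran from 37.3 to 47.2%. For H3K9me3 the 8 clusters with the most WT summits of that mark held 186 of 341 (54.5%), so such concentration was not particular to H3K27me3. First for H3K27me3 was the cluster of 21 genes from Olfr30 to Olfr311 on chromosome 11 (58454105 to 58844111), with 62 WT and 56 KO summits. It had 3 WT and 5 KO H3K9me3 summits and no Arid1a summit. The 9 genes from Olfr288 to Olfr279 on chromosome 15 had 45 WT and 47 KO summits, the 8 genes from Olfr1416 to Olfr12 on chromosome 1 had 34 and 35, and the 6 genes from Olfr70 to Olfr155 on chromosome 4 had 24 and 19. Further arrays above 40% GC varied. Some had fewer KO summits, such as Olfr56 to Olfr1380 (27 and 18), Olfr221 to Olfr1507 on chromosome 14 (11 and 6) and Olfr211 to Olfr215 on chromosome 6 (12 and 6). Counts were close in others, such as Olfr62 to Olfr1328 on chromosome 4 (19 and 17) and Olfr372 to Olfr374 on chromosome 8 (13 and 12). Olfr462 to Olfr464 on chromosome 11 had more KO summits (10 and 16).

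**Figure D3:**
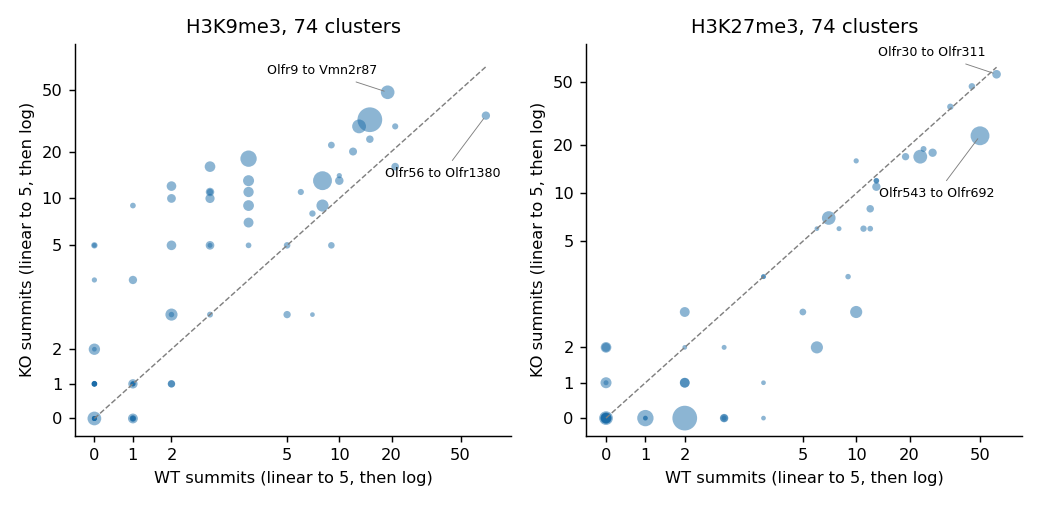
Number of KO against WT summits in the receptor windows of each of 74 clusters, for H3K9me3 and H3K27me3, on axes that are linear to 5 and logarithmic above. The area of a point grows with the number of genes, the dashed line marks equal numbers, and clusters with the most summits or the largest difference are named by their first and last gene. For H3K9me3 47 clusters lie above the line and 12 below, and for H3K27me3 8 lie above and 29 below.

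The second largest cluster, 129 genes from Olfr543 to Olfr692 at chr7:102476579-105369355, holds the class I olfactory receptors, which resemble the receptors of fish, and encloses the beta-globin genes. It gave the largest fall of H3K27me3 among the clusters, from 50 WT to 23 KO summits. The summits lay in a few stretches. From Olfr547 to Olfr560, 16 neighbouring genes over 225 kb at one end of the cluster, 32 WT and 11 KO summits were counted at 12 and 7 genes, and at the neighbours Olfr648 and Olfr649 12 and 8. In that first stretch Olfr557 had 5 WT and 3 KO summits, Olfr558 had 5 and 2, Olfr550 and Olfr551 each had 4 in WT and 0 in KO, and Olfr555 had 3 and 0. Both stretches were chosen after their values had been seen. Ctcf density in class I windows was 15.7 per Mb, beside 9.10 over other Olfr genes. H3K9me3 density was lower in both genotypes, at 6.26 beside 21.1 in WT and 10.2 beside 31.5 in KO. Other Olfr arrays of chromosome 7 were also poor in H3K9me3. Olfr693 to Olfr716 had 1 WT and 1 KO summit with 4 Ctcf summits in 0.278 Mb of windows. Olfr467 to Olfr519 had 0 WT and 2 KO summits with 3 Ctcf summits in 0.331 Mb.

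**Figure D4:**
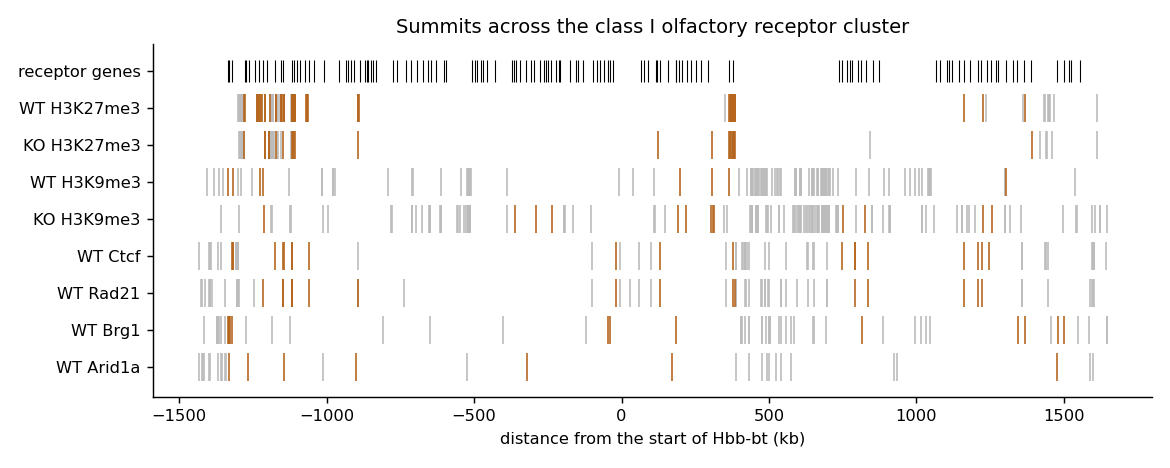
Positions of summits across the class I olfactory receptor cluster on chromosome 7, as distance in kb from the start of the beta-globin gene Hbb-bt, 1 row per peak list, with receptor gene starts as black ticks. Brown ticks are summits in receptor windows and grey ticks are other summits. WT H3K27me3 ticks gather at the left end, where the stretch from Olfr547 to Olfr560 had 32 WT and 11 KO summits, and at Olfr648 and Olfr649.

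Density across the cluster borders was measured for the 32 clusters of at least 10 genes, over all sequence inside and outside the clusters. Ctcf went from 7.60 summits per Mb more than 500 kb inside to 16.9 in the last 50 kb inside and 48.8 in the first 50 kb outside. Rad21 went from 7.46 through 14.4 to 53.1, and Arid1a from 8.79 through 12.2 to 28.1. For these proteins the step lay at the border itself. WT H3K27me3 already stood at 49.7 per Mb in the last 50 kb inside, against 2.66 more than 500 kb inside and 46.6 outside. H3K9me3 had the flattest course in KO, with 42.6, 61.6 and 75.3 per Mb at these places, against 22.6, 47.2 and 77.2 in WT.

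**Figure D5:**
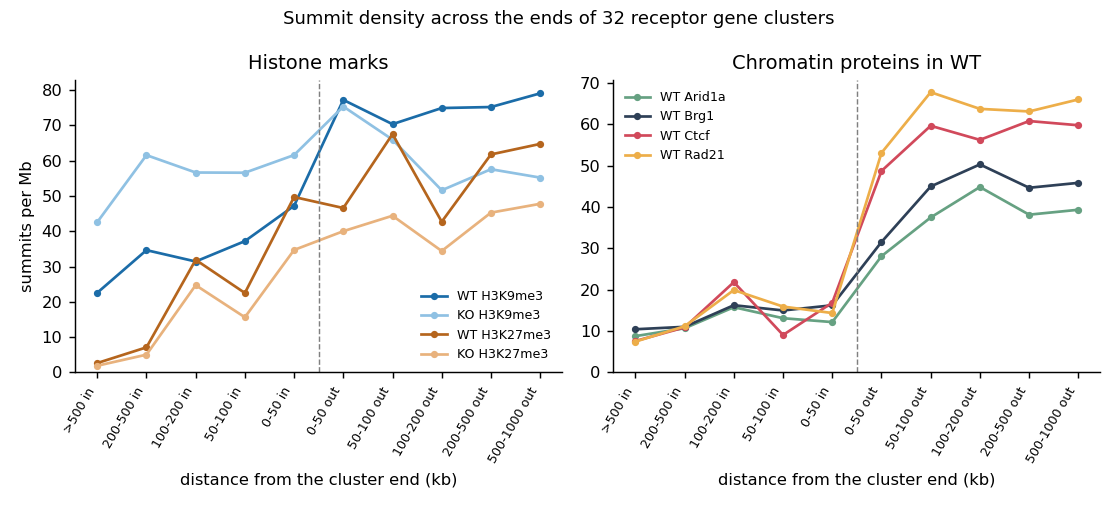
Summits per Mb by distance in kb from the end of the nearest of 32 receptor gene clusters, inside (left of the dashed line) and outside, for the histone marks and for the chromatin proteins in WT. Ctcf and Rad21 climb from 16.9 and 14.4 in the last 50 kb inside to 48.8 and 53.1 in the first 50 kb outside, while KO H3K9me3 lies above WT at each step inside the clusters.

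Receptors with a known role were then read one by one. Olfr78, a class I receptor for short-chain fatty acids that is also expressed outside the nose, had 4 H3K27me3 summits in WT and 0 in KO, together with a Ctcf summit (10.6) and a Rad21 summit (2.72). Olfr544, a receptor for azelaic acid that has been studied in liver and fat, had 1 Arid1a and 3 Brg1 summits and no summit of either mark. Olfr1393 had 2 WT H3K9me3 summits and 0 in KO. Vmn2r1, a broadly expressed member of its family, had 1 WT H3K9me3 and 4 Brg1 summits, Vmn2r26 had 1 WT H3K9me3 summit, and Vmn2r116, the receptor for the male pheromone ESP1, had 1 KO H3K9me3 summit. Olfr73, a receptor for eugenol, had 1 Ctcf summit. Olfr2, Olfr16, Olfr17, Olfr160, Olfr734 and Vmn1r49 had no summit in any list. Olfr151 is not annotated as protein-coding in this release and was not counted.

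Some receptor genes carried the strongest summits or the largest differences. For H3K9me3 the largest gains in number from WT to KO were at Vmn2r82 (1 to 9), Vmn2r7 (15 to 20) and Vmn2r79 (2 to 7). The largest falls were at Olfr56 (58 to 24), Olfr718-ps1 (7 to 3) and Vmn1r42 (10 to 7). The 3 genes with gains have long bodies of 41330, 159722 and 48827 bp in that order, which favours them in a ranking by number. Their windows had 80.1%, 69.2% and 78.2% unique words. Vmn2r46 and Olfr784 had the strongest WT summits after Olfr56, with values of 8.21 and 8.10, and among the strongest KO summits were those at Olfr1459 (7.66) and Olfr1055 (6.95). Unique words made up 0% of the Vmn2r46 window and 59.8% of the Olfr784 window. For H3K27me3, Olfr282 (3 to 8), Olfr323 (3 to 7) and Olfr281 (2 to 6) had the largest gains, and Olfr1420 (9 to 5), Olfr157 (8 to 4) and Olfr1395 (7 to 3) the largest falls. The strongest WT H3K27me3 summit, 12.1, was shared by the windows of Olfr462 and Olfr463 on chromosome 11, with 11.8 at Olfr288, and the strongest KO summits lay at Olfr284 (10.6), Olfr281 (10.1) and Olfr463 (8.73). The windows of the genes named for H3K27me3 had between 89.3% (Olfr282) and 99.6% (Olfr284) unique words.

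Strong protein summits were few. Arid1a reached 4.70 at Olfr446, 4.22 at Olfr56 and 3.99 at Olfr1417, the last a value that other receptor genes shared. Brg1 reached 5.96 at Olfr1423, 5.20 at Olfr1443 and 4.51 at Olfr1342. Rad21 was strongest at Olfr1373 (41.3, with Ctcf at 49.4 and 53.7% unique words), Olfr56 (40.9) and Olfr1396 (35.6). Olfr56 stood apart because its annotated model spans 156 kb (chr11:48978889-49135387) and overlaps 6 other protein-coding genes, so its 22 Arid1a, 25 Brg1, 9 Ctcf and 24 Rad21 summits cannot be assigned to it. Of the 1457 receptor genes, 12 overlapped another protein-coding gene.

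Other genes of the olfactory system were counted as well, some of them far longer than receptor genes and none matched on size. Of 17 genes for olfactory signalling and receptor choice, 10 had H3K27me3 summits in each genotype (32.3% of all genes in WT and 27.5% in KO), 210 in WT and 210 in KO. These included Gnao1, a G protein alpha subunit of vomeronasal neurons (60 WT and 59 KO), Ano2, a chloride channel of olfactory cilia (52 and 53), Gnal, the olfactory G protein alpha subunit (49 and 53), and Cngb1, a subunit of the cyclic nucleotide channel (16 and 13). Kdm1a, which encodes a histone demethylase needed for receptor choice, had 11 Arid1a and 9 Brg1 summits and 12 WT and 2 KO H3K9me3 summits. Of the 18 trace amine-associated and formyl peptide receptor genes, 1 had an H3K27me3 summit in WT and 0 in KO, and 9 had a Brg1 summit, beside 61.9% of all genes.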

How the data were processed

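Peak lists of 8 ChIP-seq libraries were used, 1 per group, grouped by their titles, and the 2 inputs were not analysed here. Reads had been aligned to mm10 by the authors using bowtie2, cleaned of low-quality reads and duplicates using SAMtools and Picard, and passed to MACS2 with default settings and the matching input (versions not given in the sources used here). The deposited lists hold 1 summit per peak and a −log10 q-value, a unit read from the values because the lists have no header. Narrow calling splits a broad domain into several summits, and more reads yield more peaks.

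Summits were counted in gene bodies plus 2 kb with Python 3.11.15, numpy 2.4.6, pandas 2.3.3, scipy 1.17.1 and numba 0.67.0. Other genes (19311 outside receptor windows) were weighted to the receptor sizes in 20 bins of length. Uniqueness was the share of 50-base words, taken every 20 bp, that occur once in the GRCm38 chromosomes, either strand. Counting was tested on simulated lists. Lists and members were chosen with earlier results of these data known. Named genes were receptors with a known role or ligand, the 3 strongest per list, and the 3 largest gains and falls per mark, with ties going to the higher total. The largest clusters, other chemosensory genes and the strongest Ctcf and H3K9me3 summits were named as well, and 1 H3K9me3 summit that met these rules is not reported here. Promoters are from RefSeq (GRCm38.p6), which matched 1222 receptor symbols. Alternatives are given in the closing section.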

Additional observations from a re-analysis of the deposited data

Results flagged for a closer look

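Summits were also found at 502 autosomal receptor pseudogenes, outside the windows of the protein-coding receptors and in no comparison above. There were 77 for WT and 149 for KO H3K9me3, 35 for WT and 21 for KO H3K27me3, 31 for Arid1a, 17 for Brg1, 31 for Ctcf and 31 for Rad21. They were listed because each exceeds the 3 counts that a count of 0 allows, which is a low bar over this many genes, and no density over other genes was set beside them.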

How the results depend on the processing

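No paired analysis was possible because each group has 1 library. Of 88 values under alternatives, 52 lay within the main value's interval, 33 lay outside it and 3 crossed 1. The intervals of those 3 all held 1, and some of the 33 had intervals that held the main value. The cause of each move was not tested. The values are ratios of the receptor share to the matched share unless named otherwise. For summits with −log10 q of 5 or more, they became 0.424 (KO H3K9me3), 0.114 and 0.146 (WT and KO H3K27me3), 0 (Arid1a), 0.0144 (Brg1), 0.0880 (Ctcf) and 0.0704 (Rad21), where the main values were 0.684, 0.314, 0.332, 0.157, 0.182, 0.118 and 0.107. The KO to WT ratio became 0.850 for H3K9me3, changing direction, and 0.902 for H3K27me3, and the shares with a partner became 70.0% and 80.5% for the marks and 94.7% for Rad21 with Ctcf. Matching on size and GC content, which left the other genes longer, turned the H3K27me3 ratios to 1.01 in WT and 1.04 in KO, and gave 0.445 (WT H3K9me3), 0.242 (Arid1a), 0.265 (Brg1), 0.271 (Ctcf) and 0.237 (Rad21). With 10 kb on each side the ratios were 0.422 and 0.930 (WT and KO H3K9me3), 0.263 (Arid1a), 0.280 (Brg1), 0.203 (Ctcf) and 0.197 (Rad21). The gene body alone gave 0.603 (KO H3K9me3) and 0.0764 (Rad21). Genes with at least 90% unique words, an alternative chosen after seeing the data, gave 0.148 and 0.596 (WT and KO H3K9me3), 0.134 (Brg1) and 0.0913 (Ctcf), and a KO to WT ratio of 1.83 for H3K9me3. Without the largest cluster KO H3K27me3 gave 0.393. With equal numbers of WT and KO summits the H3K27me3 ratio was 0.962, and with partners at most 500 bp apart the shares were 22.6% (H3K9me3) and 38.3% (H3K27me3). Leaving out Olfr56 or genes that overlap others, and GC-weighted bins, were also chosen after seeing the data. Depth is unknown, and the small numbers of strong summits limit every value at the stricter threshold.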
